A study of Mus musculus with 3 samples.

Results

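The 7 genes described are the glucose transporter gene Slc2a1, the glycolytic enzyme genes Aldoa, Tpi1, Gapdh, Pgam1 and Eno1, and the lactate dehydrogenase gene Ldha. They were taken by name from the tables of beta, alpha and delta cells, and are 7 of the 8237 genes that at least 1 of the 3 tables lists. The beta-cell table lists 6 of them (all but Aldoa), the alpha-cell table all 7, and 5 are listed for delta cells (all but Slc2a1 and Gapdh). Values of a gene in a cell type whose table does not list it were not analysed here.

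The islets came from 2 mice labelled IRE1αβ-/-, a beta-cell knockout of the endoplasmic reticulum stress sensor IRE1α, and from 1 mouse labelled IRE1αfl/fl, the floxed control. All 3 mice were NOD/ShiLtJ, a strain that develops autoimmune diabetes, and were 5 weeks old. Tamoxifen at 10 mg per ml was given on 5 days to induce Cre in the series, and the treatment is recorded for the control mouse as well. The sources used here name neither the Cre driver nor the deleted exons. Hand-picked islets were cultured overnight, dissociated with accutase and profiled in droplets with 10X Genomics chemistry, in which each unique molecular identifier (UMI) stands for 1 captured transcript.

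Glycolysis splits glucose into pyruvate in the cytosol and yields ATP and NADH on the way. Glucose enters through transporters of the GLUT family, aldolase cleaves the phosphorylated sugar into triose phosphates, and the enzymes from triosephosphate isomerase to enolase carry these towards pyruvate. Lactate dehydrogenase A turns pyruvate into lactate and regenerates NAD+. Mature beta cells are known for very low lactate dehydrogenase A, since they pass pyruvate to mitochondria, where its oxidation is coupled to insulin release. Several of these genes are textbook targets of the hypoxia-inducible factor HIF-1, whose DNA element has the core letters ACGTG or GCGTG, and carbohydrate-responsive factors of the ChREBP and MondoA type bind paired E-boxes with CACGTG-like letters.

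Promoter windows are shown because the 7 genes were lower together in knockout cells and are known for these elements. RefSeq's table for GRCm38.p6 held 12 windows for the 7 genes, each from 250 bases before to 50 after an annotated start. The 4 windows printed are those of Ldha, which had the lowest ratio in each table, of Slc2a1, of Gapdh and, for contrast, of Tpi1. Capitals mark ACGTG or GCGTG on either strand, so that CACGT and CACGC are the same letters read from the opposite strand, and CACGTG holds ACGTG on both strands.
Ldha, chr7:46845554-46845853, plus strand: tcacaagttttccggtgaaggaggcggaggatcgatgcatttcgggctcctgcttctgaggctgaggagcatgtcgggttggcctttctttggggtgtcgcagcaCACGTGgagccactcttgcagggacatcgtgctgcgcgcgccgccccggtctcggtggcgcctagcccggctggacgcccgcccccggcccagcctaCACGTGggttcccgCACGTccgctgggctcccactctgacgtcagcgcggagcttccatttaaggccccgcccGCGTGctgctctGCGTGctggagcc
Slc2a1, chr4:119108495-119108794, plus strand: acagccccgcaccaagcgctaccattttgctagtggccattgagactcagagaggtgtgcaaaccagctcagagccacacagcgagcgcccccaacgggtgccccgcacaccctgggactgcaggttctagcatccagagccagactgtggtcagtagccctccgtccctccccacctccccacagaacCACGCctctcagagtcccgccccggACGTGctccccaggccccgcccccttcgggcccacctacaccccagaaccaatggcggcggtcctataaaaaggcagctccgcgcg
Gapdh, chr6:125165724-125166023, minus strand: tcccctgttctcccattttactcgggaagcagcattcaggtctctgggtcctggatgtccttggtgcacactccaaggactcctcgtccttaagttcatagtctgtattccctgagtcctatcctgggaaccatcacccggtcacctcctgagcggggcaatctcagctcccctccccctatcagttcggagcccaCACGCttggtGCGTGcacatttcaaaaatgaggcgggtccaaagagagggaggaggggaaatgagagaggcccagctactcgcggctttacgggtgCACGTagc
Tpi1, chr6:124814109-124814408, minus strand: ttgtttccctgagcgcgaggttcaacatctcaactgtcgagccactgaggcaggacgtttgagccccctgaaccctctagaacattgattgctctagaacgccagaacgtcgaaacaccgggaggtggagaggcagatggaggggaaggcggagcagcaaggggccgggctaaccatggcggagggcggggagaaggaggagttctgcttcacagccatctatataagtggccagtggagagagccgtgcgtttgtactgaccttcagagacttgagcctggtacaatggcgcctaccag

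The printed Ldha window, the upstream one of a pair, held 7 copies of ACGTG or GCGTG, counting the palindrome CACGTG once per strand. At least as many were held by 99 of the 32851 mouse windows in the table (0.301%). The printed window, which held the more copies of the pair, also held 2 copies of CACGTG, which 7.15% of all windows hold at least once. The other Ldha window held 2 copies of ACGTG or GCGTG and no CACGTG. The Slc2a1 window held 2 copies of ACGTG or GCGTG and the Gapdh window 3, while the Tpi1 window held none. Among the 7 genes, 6 had ACGTG or GCGTG in at least 1 window, against 46.7% of the 27025 genes in the table. ACGTG alone was found in windows of 5 of the 7 genes (21.8% of all genes) and GCGTG alone in windows of 5 (35.2%). These matches describe letters in a window and were not measured as binding sites. The shares are no test, because the windows were shown for genes already known for these elements. The comparison by gene is also unlike, with 12 windows for the 7 genes and 32851 windows for 27025 genes.

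The tables give mean UMIs per cell for genes that the authors listed as different, and were taken as deposited. They cover 815 knockout and 829 control beta cells, 304 and 177 knockout and 142 control alpha cells, and 138 and 78 knockout and 101 control delta cells. The knockout beta cells are 1 pooled column. Alpha and delta cells have 1 column for each knockout mouse, called the first and the second column because the number in their name was not matched to a sample. The control side has 1 mouse and thus no spread of its own, so no test was used for the main calls. A test that borrows its spread from the knockout mice is given as an alternative for alpha and delta cells. Ratios are knockout over control, their 95% intervals are exact Clopper-Pearson bounds that cover counting error only, and a ratio of at least 1.5 in either direction was used as the rule for calling a difference. Ern1, which encodes IRE1α, was listed in beta cells alone and had 0.742 UMIs per cell in knockout and 0.509 UMIs per cell in control cells, a ratio of 1.46 [1.29 to 1.66]. The median ratio of all listed beta-cell genes was 1.45, so Ern1 stood at the level of the typical listed gene. Whether the captured end of Ern1 lies in the deleted part is not given, so this value does not check the labels, which are used as the submitters wrote them.

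All 18 listed values of the 7 genes were lower in knockout than in control cells, and all 18 passed the fold of 1.5. Of all listed genes 5.04% were lower in knockout beta cells by any amount, 57% in alpha cells and 18.6% in delta cells. In beta cells 6 of 6 genes were called lower, against 2.47% of the 8193 listed genes called lower and 45.7% called higher. In alpha cells 7 of 7 were called lower, against 30.1% of 186 listed genes called lower and 10.8% called higher. In delta cells 5 of 5 were called lower, against 16% of 231 listed genes called lower and 41.1% called higher. At a fold of 2 the counts were 2 of 6 in beta cells (1.21% of listed genes), 4 of 7 in alpha cells (11.8%) and 2 of 5 in delta cells (6.49%). The median log2 ratio of the 7 genes in beta cells was -0.87, beside 0.54 over all genes listed there. It was -1.18 in alpha cells, beside -0.29, and -0.98 in delta cells, beside 0.42. Every listed gene had already been chosen by the authors as different on these cells. These counts thus describe which way the genes differed and by how much, not how often such genes differ. The 7 genes were also chosen with earlier results of these data known, so their shared direction is no test of the pathway. Glycolysis genes outside the 7 did not all go the same way in beta cells.

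**Figure D1:**
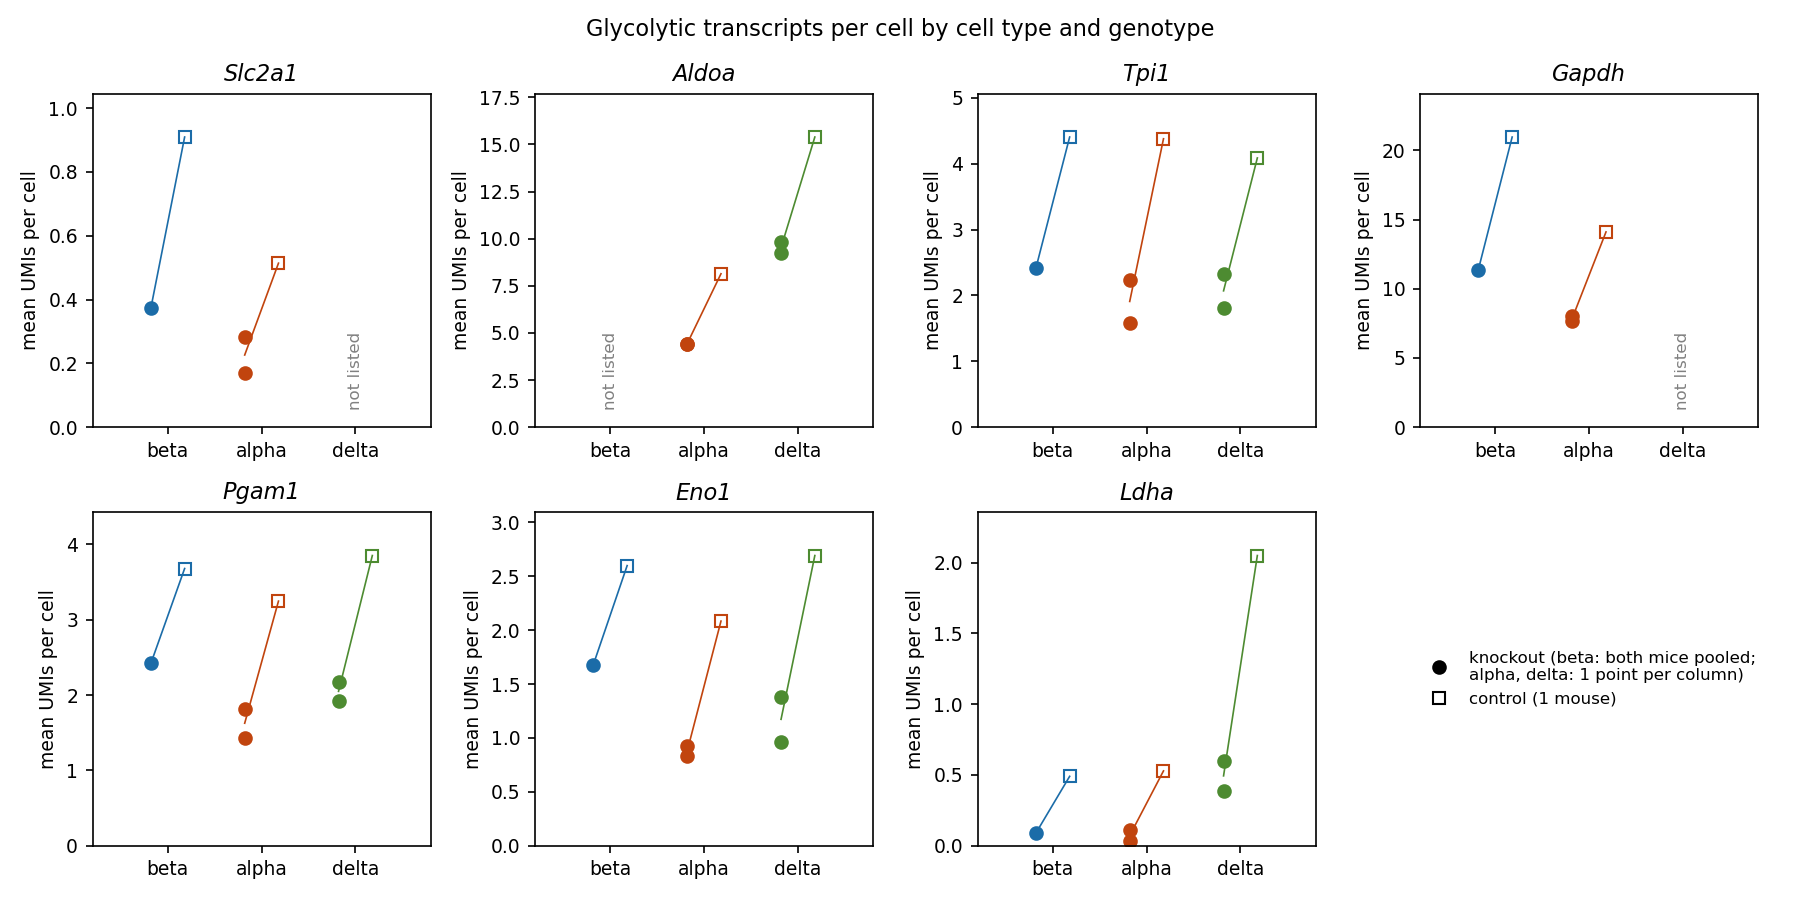
Mean UMIs per cell of the 7 genes (y axis, linear from 0, a separate scale for each gene) in beta, alpha and delta cells, with knockout values as filled points and the control mouse as an open square. Lines join the knockout mean with the control value. In every panel and cell type where a gene is listed, each knockout point lies below its control square, and Ldha shows the largest drop in proportion, with 0.0883 UMIs per cell in knockout and 0.490 UMIs per cell in control beta cells.

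Slc2a1 encodes GLUT1, a glucose transporter of the plasma membrane (mm10, chr4:119108711-119137983, plus strand). In beta cells it had 0.373 UMIs per cell in the knockout, against 0.910 in the control, from 304 and 754 UMIs. The ratio was 0.410 [0.358 to 0.469], the 68th lowest of the 8193 listed genes. Alpha cells had 0.283 and 0.169 UMIs per cell in the knockout columns, against 0.514 in the control. Both knockout columns were below the control, with ratios of 0.550 [0.398 to 0.762] and 0.330 [0.208 to 0.511], and these rest on 86 and 30 UMIs in the knockout columns and 73 in the control. The intervals of the 2 knockout columns overlap.

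Aldoa encodes aldolase A, which cleaves fructose 1,6-bisphosphate (chr7:126795234-126800751, minus strand). Alpha cells had 4.43 and 4.44 UMIs per cell in the knockout columns and 8.14 UMIs per cell in the control. The knockout columns were nearly equal, and both lay at a ratio of 0.545 to the control. In delta cells it had 9.24 and 9.82 UMIs per cell in the knockout columns and 15.4 UMIs per cell in the control, with ratios of 0.600 [0.557 to 0.647] and 0.638 [0.584 to 0.696]. Aldoa had the mean ratio nearest to 1 among the 5 genes listed in delta cells.

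Tpi1 encodes triosephosphate isomerase, which interconverts the triose phosphates that aldolase releases (chr6:124810586-124814296, minus strand). In beta cells it had 2.41 UMIs per cell in the knockout and 4.41 UMIs per cell in the control, from 1967 and 3653 UMIs, a ratio of 0.548 [0.518 to 0.579]. Alpha cells had 2.24 and 1.58 UMIs per cell in the knockout columns, against 4.38 in the control. In delta cells it had 2.33 and 1.81 UMIs per cell in the knockout columns, against 4.09 in the control. No knockout column reached its control in either cell type. The ratios were 0.511 [0.457 to 0.570] and 0.361 [0.313 to 0.417] in alpha cells, where the intervals of the 2 knockout columns do not overlap, and 0.571 and 0.442 in delta cells.

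Gapdh encodes glyceraldehyde-3-phosphate dehydrogenase, which makes the NADH of glycolysis (chr6:125161715-125166467, minus strand). In beta cells it had 11.4 UMIs per cell in the knockout and 21.0 UMIs per cell in the control, from 9282 and 17377 UMIs, a ratio of 0.543 [0.530 to 0.557]. In alpha cells it had 8.07 and 7.66 UMIs per cell in the knockout columns and 14.1 UMIs per cell in the control, a mean ratio of 0.557. The 2 knockout columns of alpha cells differed by far less than either differed from the control, with ratios of 0.572 [0.539 to 0.607] and 0.543 [0.507 to 0.582].

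Pgam1 encodes phosphoglycerate mutase (chr19:41911923-41918660, plus strand), and Eno1 encodes alpha-enolase, which makes phosphoenolpyruvate (chr4:150236721-150248879, plus strand). Pgam1 had 2.42 UMIs per cell in knockout and 3.68 UMIs per cell in control beta cells, a ratio of 0.657 [0.621 to 0.696]. It had 1.82 and 1.44 UMIs per cell in the knockout columns of alpha cells, against 3.25 in the control. In delta cells the values were 2.17 and 1.92 UMIs per cell in the knockout columns, against 3.85 in the control. The knockout columns lay below the control in both cell types, at mean ratios of 0.501 in alpha and 0.532 in delta cells. Eno1 had 1.68 UMIs per cell in knockout and 2.60 UMIs per cell in control beta cells, a ratio of 0.647 [0.604 to 0.692]. In alpha cells it had 0.921 and 0.836 UMIs per cell in the knockout columns, against 2.08 in the control, and in delta cells 1.38 and 0.962 UMIs per cell, against 2.69 in the control. Its mean ratio was 0.421 in alpha and 0.435 in delta cells. The ratios of the 3 cell types were not tested against each other, and their order depended on scaling: with centring, the log2 ratio was -1.17 in beta and -0.95 in alpha cells.

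Ldha encodes the A subunit of lactate dehydrogenase (chr7:46841475-46855627, plus strand) and had the lowest ratio of the 7 genes in all 3 tables. In beta cells it had 0.0883 UMIs per cell in the knockout, against 0.490 in the control, from 72 and 406 UMIs. The ratio was 0.180 [0.138 to 0.232], the 20th lowest of 8193 listed genes. In alpha cells it had 0.109 and 0.0339 UMIs per cell in the knockout columns, against 0.528 in the control, from 33, 6 and 75 UMIs. Both knockout columns were far below the control, at ratios of 0.206 [0.132 to 0.313] and 0.0642 [0.0228 to 0.146], and the mean was the 3rd lowest of 186 listed genes. In delta cells it had 0.601 and 0.385 UMIs per cell in the knockout columns, against 2.05 in the control, from 83, 30 and 207 UMIs. The ratios were 0.293 [0.225 to 0.380] and 0.188 [0.123 to 0.276], and the mean was the 5th lowest of 231 listed genes. Beside Gapdh in the same columns, Ldha was lower by a further ratio of 0.332 in beta cells and of 0.359 and 0.118 in the knockout columns of alpha cells. Beside Tpi1 in delta cells the further ratios were 0.514 and 0.425.

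**Figure D2:**
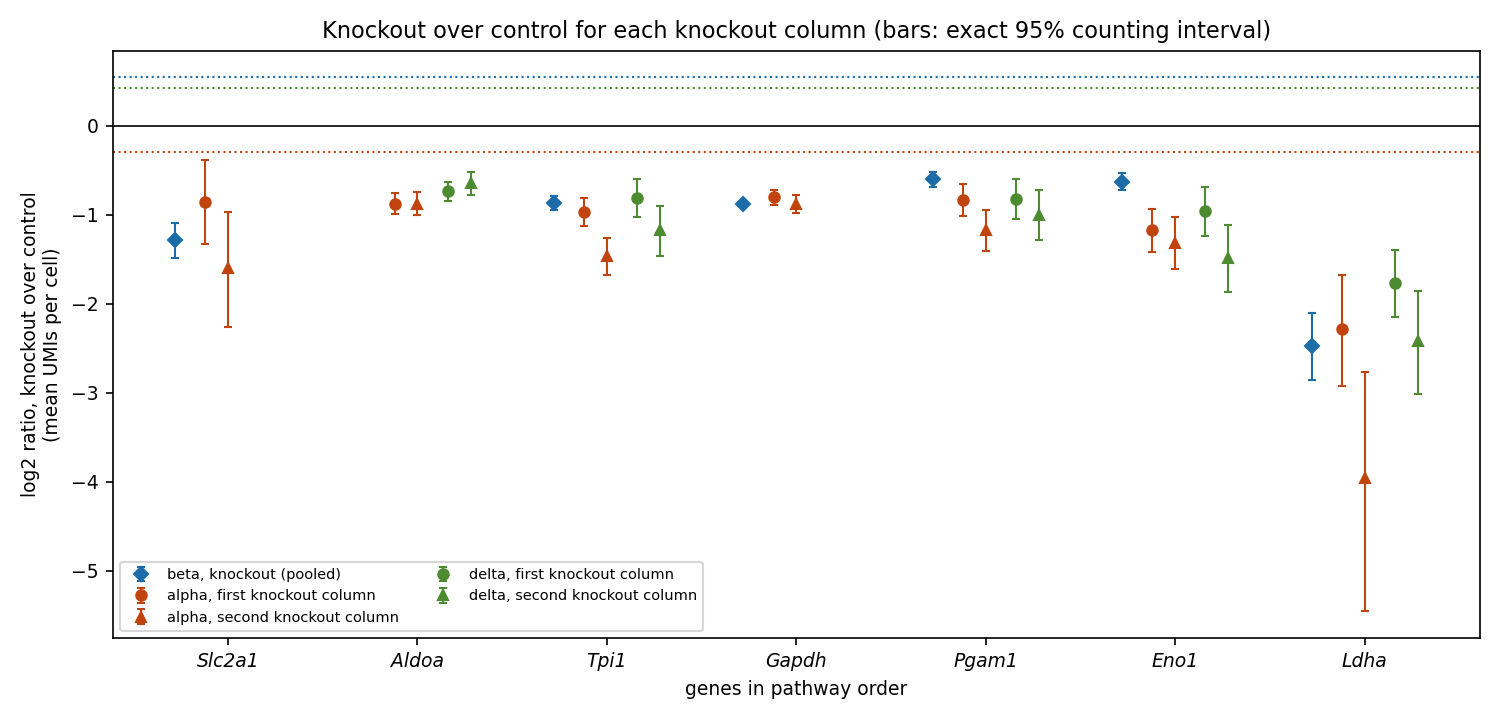
Log2 ratio of knockout over control (y axis) for the 7 genes in pathway order (x axis), with 1 point for pooled knockout beta cells and 1 for each knockout column of alpha and delta cells. Bars are exact 95% counting intervals and dotted lines the median log2 ratio of all genes listed in each table. Every point lies below 0, and Ldha lies lowest in each cell type.

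The 2 knockout mice could be compared with each other in alpha and delta cells. Both knockout columns were below the control for 7 of 7 genes in alpha and 5 of 5 in delta cells, against 51.1% and 17.7% of all listed genes. For all 12 of these values the gap between the knockout columns was smaller than the gap between the higher knockout column and the control. This was not counted over all listed genes, so it does not set the 7 genes apart. The second column was lower than the first for 6 of 7 genes in alpha cells and 4 of 5 in delta cells, while 48.4% and 63.6% of all listed genes were lower in the second column. Aldoa was the exception in both cell types, with a second column at 1.00 and 1.06 times the first. The largest difference between the knockout columns was that of Ldha in alpha cells, where the second column was at 0.312 times the first on 6 UMIs.

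In a quasi-likelihood test of the recovered UMIs by edgeR, with cell number as offset, 2 of 7 genes passed as lower in alpha cells, Aldoa and Gapdh (adjusted p = 0.0392 each), beside 2.15% of listed genes. The other 5 did not pass, with adjusted p from 0.0533 for Tpi1 to 0.359 for Slc2a1. In delta cells 5 of 5 passed as lower, beside 9.52% of listed genes, with adjusted p from 0.000311 for Ldha to 0.0205 for Pgam1. With the listed UMI total as offset, 3 of 7 passed in alpha cells (Tpi1 at adjusted p = 0.0142, Aldoa and Gapdh at 0.0275; 3.23% of listed genes) and 1 of 5 in delta cells (Ldha at 0.0117; 3.46%). This test leaves 1 residual degree of freedom, and the spread it uses is that of the 2 knockout mice. The authors had selected the genes with these cells, which makes the adjusted p-values too small. It could not be run on the pooled beta-cell column.

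The size of the differences depended on how the columns were scaled. Knockout beta cells held fewer UMIs of listed genes, 24796 per knockout cell against 31552 per control cell, but more once hormone genes were set aside (11167 per knockout and 9396 per control cell). Delta cells held 3070 and 2643 UMIs of listed genes in the knockout columns and 3674 in the control, and alpha cells 2214 and 2271 in the knockout columns and 2534 in the control. Scaled to the listed total, 2 of 6 genes in beta cells (Slc2a1 and Ldha) and 3 of 5 in delta cells (Tpi1, Eno1 and Ldha) still passed the fold of 1.5, and Pgam1 in beta cells moved to a log2 ratio of -0.26. In alpha cells all 7 passed under this scaling, but 5 of 7 with centring on the median of the table, where Aldoa (-0.58) and Gapdh (-0.55) fell just short. Scaled without hormones, every beta and delta value moved further from 0 (-0.85 for Pgam1 in beta cells). All 126 values under the 8 alternative settings of scaling, pseudocount, filter, cell weighting and knockout mouse lay below 0. Only a scaling that raises the ratios could have reversed a direction. In alpha cells all 3 scalings raised them, but in beta and delta cells only the listed total did. Centring and the total without hormones lowered the ratios in beta and delta cells. The settings that do not rescale keep the sign, since every knockout column already lay below its control.

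**Figure D3:**
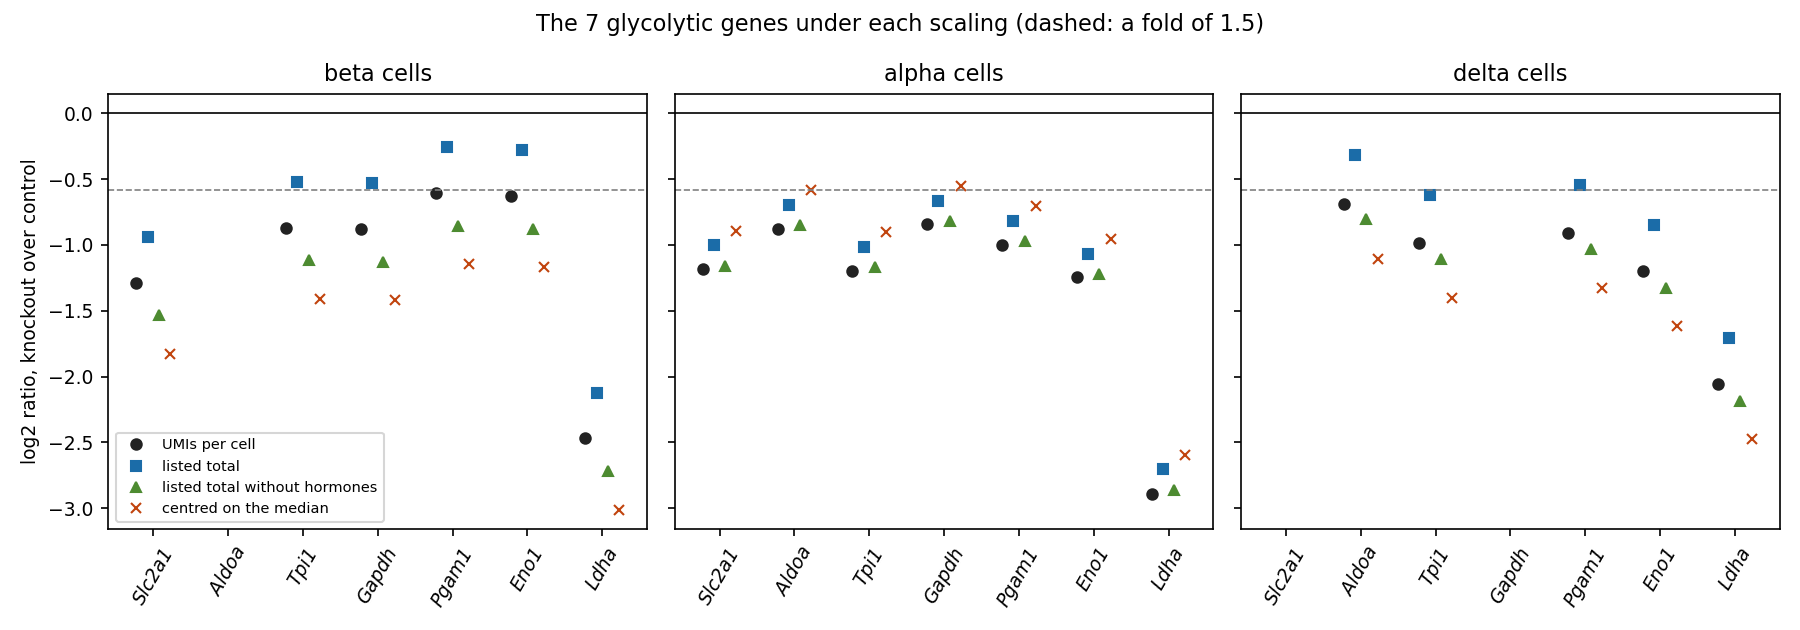
Log2 ratio of knockout over control (y axis) for each gene (x axis) in beta, alpha and delta cells under 4 scalings: UMIs per cell as deposited, the listed UMI total, that total without hormones, and centring on the median of the table. The dashed line is a fold of 1.5 lower. All points lie below 0, and the scaling to the listed total puts Tpi1, Gapdh, Pgam1 and Eno1 in beta cells and Aldoa and Pgam1 in delta cells above the dashed line. Centring does the same for Aldoa and Gapdh in alpha cells.

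Across cell types, Ldha differed most. In the control mouse, delta cells had 2.05 UMIs per cell, 4.18 times [3.52 to 4.96] the 0.490 of beta cells and 3.88 times [2.97 to 5.12] the 0.528 of alpha cells, while beta and alpha cells did not differ beyond counting error (beta over alpha 0.927 [0.723 to 1.20]). The knockout delta columns, at 0.601 and 0.385 UMIs per cell, lay on either side of the control beta level. Tpi1 was at 4.41 UMIs per control beta cell, 4.38 per alpha cell and 4.09 per delta cell, which differed by less than counting error. Pgam1 and Eno1 did not differ beyond counting error between control delta and beta cells, at 3.85 and 3.68 UMIs per cell for Pgam1 and 2.69 and 2.60 for Eno1, and both were lower in alpha cells. Alpha over beta the ratio was 0.882 [0.798 to 0.974] for Pgam1, 0.802 [0.708 to 0.906] for Eno1, 0.673 [0.642 to 0.705] for Gapdh and 0.565 [0.438 to 0.719] for Slc2a1. Aldoa was 1.89 times [1.75 to 2.04] as high in delta as in alpha cells. These are levels of 1 mouse. Summed over 59 genes listed in all 3 tables, without hormones and without the 7 genes, control beta cells held 1188 UMIs, alpha cells 1039 and delta cells 890, so the higher Ldha of delta cells stood beside a lower sum.

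The cell types were checked against their markers as far as these are listed. Ins2 was at 9146 UMIs per cell in knockout and 13373 UMIs per cell in control beta cells. Summed, 6 of 10 beta markers were at 13364 UMIs per cell in knockout and 22059 in control beta cells. Of these 6, 5 were called lower, beside 2.47% of all listed genes, with Mafa lowest (ratio 0.364 [0.338 to 0.391]). Ins2 (0.684) was not called. The alpha-cell table lists none of 8 alpha markers, so its label could not be checked from them, and it holds Ppy, the pancreatic polypeptide hormone, at 341 and 323 UMIs per cell in knockout and 427 in control cells. In delta cells only 1 of 6 delta markers was listed, Rbp4. It was at 84.2 and 69.1 UMIs per cell in the knockout columns and 137 UMIs per cell in the control. Control alpha cells had 15.7 UMIs per cell of Rbp4 and control beta cells 2.94. Control alpha cells held 1.60% of the control beta level of Ins2 and 1.36% of that of Ins1. For Iapp, the amylin gene, the share was 7.06%, for Tpi1 99.4% and for Ldha 107.8%. In control delta cells Iapp was at 102.4% of the control beta level.

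Markers of other cells moved with genotype in the same tables. In beta cells the summed level was 117 UMIs per cell in knockout and 52.0 in control cells for 4 of 8 alpha markers, and 64.6 and 39.6 for 3 of 6 delta markers. It was 107 in knockout and 21.7 in control cells for 2 of 4 markers of pancreatic polypeptide cells, and 70.3 and 38.4 for 4 of 7 duct markers. For 3 of 5 red cell markers it was 22.6 in knockout and 0.0639 in control beta cells. Levels were low for 4 of 9 immune markers (0.564 in knockout and 0.641 in control beta cells), 2 of 5 endothelial markers (0.363 and 0.192), 4 of 6 mesenchymal markers (0.117 and 0.00844) and the acinar marker Reg3b, 1 of 8 (0.114 and 0). Within these lists genes went opposite ways: Cd68 had a ratio of 0.141 and Cdh5 one of 0.0782 [0.00184 to 0.521], while Cd74 (1.96), Cd79a (2.76), Lyz2 (10.2 [1.45 to 441]) and Pecam1 (2.06) were higher. Reg3b, Col1a1 and Dcn were at 0 in control beta cells. In alpha cells 3 of 10 beta markers summed to 251 and 304 UMIs per cell in the knockout columns and 434 in the control, 2 of 6 delta markers to 19.5 and 51.9 in the knockout and 52.5 in the control, and 1 of 9 immune markers, S100a9, was at 0.0724 and 0.0452 in the knockout and 1.09 in the control. In delta cells 2 of 8 alpha markers summed to 163 and 66.1 in the knockout columns and 11.0 in the control. The beta marker Iapp (1 of 10) was at 797 and 698 in the knockout columns of delta cells and 1825 in the control, and 2 of 7 duct markers summed to 8.09 and 8.77 in the knockout and 16.3 in the control. In alpha cells 2 of 7 duct markers summed to 4.10 and 5.24 in the knockout columns and 6.11 in the control. The part of these cells or of free RNA in the values of the 7 genes was not tested.

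Other genes of glucose breakdown did not all go the same way in beta cells. Of 27 further glycolysis genes the beta-cell table lists 12. Of these, 4 were called lower (2.47% of all listed genes), 5 were called higher (45.7% of all listed genes) and 3 lay between. The median log2 ratio of the 12 was 0.21, beside 0.54 for all listed genes. Called lower were Pfkl, the liver-type phosphofructokinase subunit (0.566 UMIs per cell in knockout and 1.34 in control cells, ratio 0.422 [0.378 to 0.471]), the beta-cell glucose transporter gene Slc2a2 (0.119 and 0.271, ratio 0.439), Pgk1, phosphoglycerate kinase (1.60 and 3.24, ratio 0.492 [0.460 to 0.526]) and the enolase gene Eno2 (0.445 and 0.764, ratio 0.583). Pgk1 sits between Gapdh and Pgam1 in the pathway, so each listed step from triosephosphate isomerase to enolase had a gene called lower. Between the folds lay Pkm, pyruvate kinase M (ratio 0.926 [0.887 to 0.966]), Gpi1, glucose-6-phosphate isomerase (0.973 [0.907 to 1.04]), and Pfkfb3, which sets the phosphofructokinase activator (1.38).

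Several isozyme pairs were called in opposite directions in knockout beta cells. The muscle-type Pfkm was called higher (ratio 1.63 [1.20 to 2.23], from 114 and 71 UMIs) and Pfkl lower. Eno3 was called higher (1.89 [1.29 to 2.81], from 80 and 43 UMIs) and Eno1 and Eno2 lower. Ldhb, the B subunit of lactate dehydrogenase, was higher (2.46 [1.22 to 5.29], from 29 and 12 UMIs) where Ldha was lower. The intervals of Pfkm, Eno3 and Ldhb all held 1.45, the median ratio of all listed beta-cell genes. Pklr, the liver-type pyruvate kinase, had a ratio of 2.92 [1.59 to 5.65] from 43 UMIs in knockout and 15 in control cells. Bpgm, bisphosphoglycerate mutase, had a ratio of 1.80. A gene with few UMIs needs a larger ratio to be listed, and 45.7% of all listed genes were called higher. With centring on the median, Pfkm (log2 ratio 0.17), Eno3 (0.38) and Bpgm (0.31) were not called. Eno3, Ldhb and Pklr lay under 0.1 UMIs per cell in knockout and control beta cells. In alpha cells 3 of 27 were listed and all 3 were called lower, beside 30.1% of all genes listed there. Pgk1 had 1.26 and 0.853 UMIs per cell in the knockout columns and 2.30 in the control (mean ratio 0.459). Pfkl had 0.668 and 0.294 against 0.937 (0.513), and Pkm 2.70 and 2.66 against 4.07 (0.658). For Pkm the called ratio in alpha cells and the ratio near 1 in beta cells were not tested against each other. Delta cells list none of the 27.

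**Figure D4:**
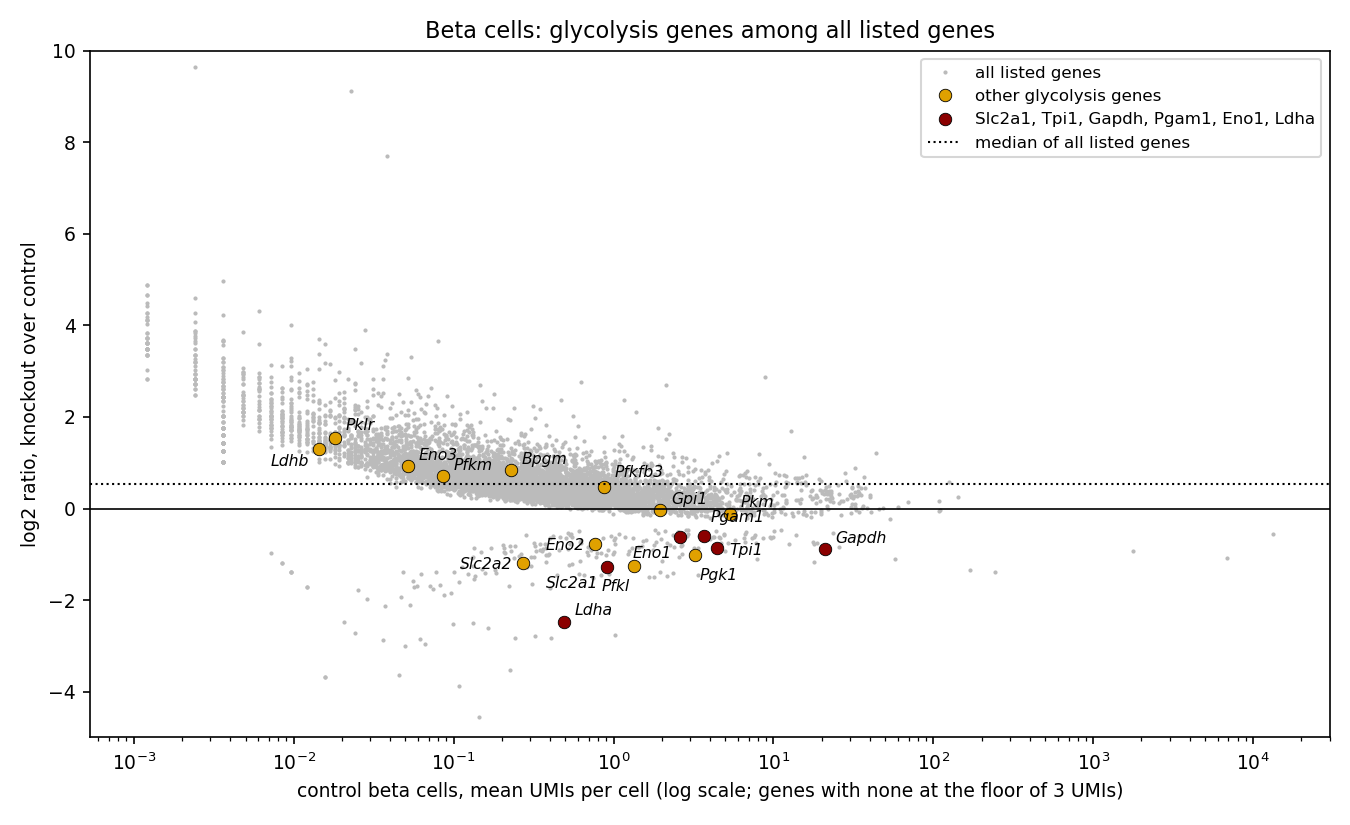
Log2 ratio of knockout over control beta cells (y axis) against the mean UMIs per control cell (x axis, log scale) for all 8193 listed genes in grey, the 6 glycolytic genes described in dark red and the 12 further glycolysis genes in orange. Genes with no control UMI are placed at 3 UMIs over the control cells. The 6 genes lie in the sparse group below 0, with Pfkl, Pgk1, Slc2a2 and Eno2, while the other further glycolysis genes lie near or above 0.

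Among genes around the pathway, Slc16a3, which encodes the lactate exporter MCT4, had 0.0233 UMIs per cell in knockout and 0.131 UMIs per cell in control beta cells, from 19 and 109 UMIs, a ratio of 0.177 [0.103 to 0.290]. In alpha cells it had 0.0296 and 0 UMIs per cell in the knockout columns and 0.176 in the control, from 9, 0 and 25 UMIs, and the 0 allows a ratio of up to 0.128 at the upper bound of its interval. It did not pass edgeR's test there (adjusted p = 0.278). Pdk1, a kinase that switches off pyruvate dehydrogenase, had a ratio of 0.470 [0.363 to 0.605] in beta cells. Of 21 genes of pyruvate and lactate handling 13 were listed in beta cells, 2 were called lower (these; 2.47% of all listed genes) and 3 higher (45.7% of all listed genes), among them the malic enzyme genes Me1 (1.56) and Me3 (2.72). Bsg, the chaperone of lactate transporters, had a ratio of 0.916 [0.886 to 0.948] in beta cells and was at 7.61 and 8.07 UMIs per cell in the knockout columns of alpha cells and 10.8 in the control.

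In the citric acid cycle 16 of 18 genes were listed in beta cells, of which 1 was called lower and 2 higher. The shares of all listed beta-cell genes, here and for the next lists, were 2.47% lower and 45.7% higher. Fh1, fumarate hydratase, was the lower one, with 0.227 UMIs per cell in knockout and 0.609 in control beta cells (ratio 0.373 [0.313 to 0.442]), and it had 0.118 and 0.164 UMIs per cell in the knockout columns of alpha cells against 0.563 in the control. Suclg2 (2.41) and Idh1 (1.80) were called higher. Of 10 NADH shuttle genes 6 were listed, none was called lower and 2 were called higher, Gpd1 (2.61) and Gpd1l (1.51). Of 8 pentose phosphate genes 6 were listed, all above 1, and Pgd, 6-phosphogluconate dehydrogenase, was called higher (2.41). Of 17 genes of glycogen and gluconeogenesis 8 were listed, with the glycogen synthase gene Gys1 (0.501) and Pgm2 (0.636) called lower and 3 called higher, Fbp1 (2.30) at the top. Fbp1, fructose-1,6-bisphosphatase, was also listed in delta cells, with 1.78 and 0.910 UMIs per cell in the knockout columns and 0.287 in the control.

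Of 30 further genes of the hypoxia response 14 were listed in beta cells. Called lower were 8 (2.47% of all listed genes), none was called higher (45.7%), and the median log2 ratio was -0.90. Ak4, an adenylate kinase of mitochondria, had 28 UMIs in knockout and 201 in control beta cells (ratio 0.142 [0.0918 to 0.211]), and Ankrd37 had a ratio of 0.302. Hif1a, which encodes the regulated HIF-1 subunit, had a ratio of 1.35 [1.25 to 1.47] and Ddit4 one of 1.28. In alpha cells 3 of 30 were listed and all were called lower (Ak4 0.198, Bnip3 0.328, Mif 0.422), beside 30.1% of listed genes. In delta cells 2 of 30 were listed and both called lower (Bnip3 0.375, Mif 0.574), beside 16% of listed genes. Of 8 genes that respond to glucose or control that response, 4 were listed in beta cells and 3 were called higher, beside 45.7% of all listed genes. Txnip, an arrestin-like inhibitor of glucose uptake, had 1.34 UMIs per cell in knockout and 0.376 in control beta cells (ratio 3.55 [3.13 to 4.04]), Arrdc4 a ratio of 2.49 [2.24 to 2.77], and Mlxipl, which encodes ChREBP, one of 1.71.

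**Figure D5:**
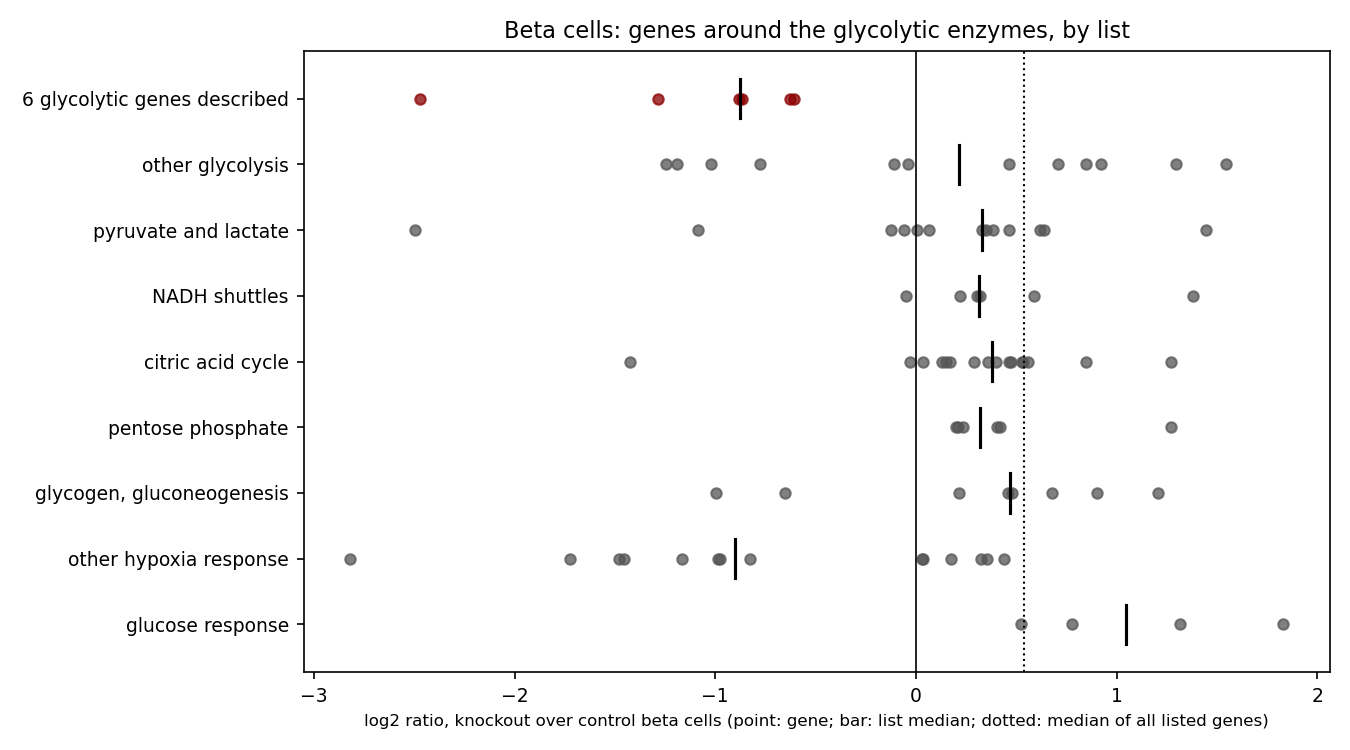
Log2 ratio of knockout over control beta cells (x axis) for the listed genes of each list (rows), with 1 point per gene and a bar at the list's median. The dotted line is the median of all listed genes, 0.54. The 6 genes described (median -0.87) and the further hypoxia response genes (median -0.90) have medians below 0, and the other 7 lists have medians above 0. Of those 7, only the glucose response list has its median above the dotted line.

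The genes with the most similar profile were sought among the 60 other genes listed in all 3 tables and above 0 in every column. Likeness was the Euclidean distance between a gene's 5 log2 ratios (beta, 2 alpha and 2 delta columns) and the median profile of Tpi1, Pgam1, Eno1 and Ldha, the 4 genes listed in all tables. Mif, a cytokine gene, was nearest (distance 0.602), with log2 ratios of -1.16 in beta cells, -1.01 and -1.52 in alpha cells and -0.57 and -1.08 in delta cells. Iapp came next (0.659), then Ssr2 (0.973) and Spcs2 (1.04), which encode subunits of the translocon-associated complex and of the signal peptidase, and Bnip3 (1.12), a mitochondrial autophagy receptor. The gene after Bnip3 lay at 1.13, nearly the same distance. Few of the 60 other genes were lower in all 5 columns, so few could lie near this profile. Ldha itself lay at a distance of 3.60 from this median profile, farther than 50 of the 60 other genes. The columns of a table share 1 control, so the 5 ratios are not independent.

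Some of the 7 genes have near-identical copies in the mouse genome, which limits what their counts can show. Of the 50-base windows along the longest coding transcript in GENCODE M21, 82.5% of those of Gapdh also occur in other annotated genes, 72.2% of those of Eno1, which include its copy Eno1b, and 41.5% of those of Pgam1. The shares were 16.6% for Ldha, 13.5% for Aldoa, 7.51% for Tpi1 and 0% for Slc2a1. How the authors' counting treated reads that fit several genes is not given in the sources used here. The levels of Gapdh, Eno1 and Pgam1 are therefore uncertain where reads fit several genes. The windows run along the whole transcript, and where in it the reads lie was not analysed here.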

How the data were processed

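Islet cells of 2 knockout mice and 1 control mouse were profiled. The submitters' processing notes name Cell Ranger 3.0.0 and mm10. The sources used here do not give the cell filters, doublet removal, free RNA correction, clustering or the authors' test, and shared barcodes were not analysed here. The authors deposited, per cell type, a signal value per gene and column. It is the mean UMIs per cell, which was worked out from the values: a whole cell number per column turned the values into whole UMIs (tolerance 0.001) for 100% of genes, or 99.99% in control beta cells. The p-values and q-values that the authors deposited were computed by them from cells and served only to describe which genes are listed (q up to 0.00998 for beta, 0.0101 for alpha and 0.0103 for delta cells). The alpha-cell header is shifted by 1 column, and 13 beta-cell names turned into dates were restored from their Ensembl identifiers. Of these identifiers 8187 of 8193, 185 of 186 and 230 of 231 were found in GENCODE M21, which gave the coordinates (mm10).

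From the deposited values the ratio (fold) of knockout over control was computed with no pseudocount. The knockout value of alpha and delta cells is the unweighted mean of 2 columns. For a group with no UMI the fold is a lower bound, computed with 3 UMIs summed over the group. Intervals are exact (95%) and cover counting error only. A fold of 1.5 replaces a test. The mice share no litter or batch label, and p-values of edgeR measure only the spread between these mice. Alternatives were a fold of 2, a filter at 0.1 UMIs per cell, a pseudocount (10th percentile of the nonzero means), 3 scalings, leaving out either knockout column, a mean weighted by cells, and edgeR 4.0.16 (R 4.3.3). A fold of 1.5 in each knockout column was added after seeing the data.

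The 7 genes and the gene lists were chosen with earlier results of these data known. Genes named are the 7, every listed gene of the further glycolysis list (2 of its genes were left out of the list and are not reported here), the 2 highest and 2 lowest ratios of each other list per table, and the 5 genes with the nearest profile. Marker genes at 0 in control beta cells, and some immune markers, were named after their values were seen. Motifs were searched on both strands of the RefSeq promoter windows (GRCm38.p6) for the letters given with the sequences. Python 3.11.15, pandas 2.3.3 and SciPy 1.17.1 were used.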

Additional observations from a re-analysis of the deposited data

Results flagged for a closer look

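Some marker genes of other cells were higher in knockout beta cells and lower in both knockout columns of another cell type. Krt8, a keratin of duct cells, had a ratio of 0.810 in alpha cells and of 2.31 in beta cells. Ppy had a ratio of 0.777 in alpha cells and of 7.36 in beta cells. Rbp4 had a ratio of 0.552 in alpha cells and of 0.560 in delta cells, and of 1.86 in beta cells. These differences between cell types were not tested. All listed values of the 7 glycolytic genes were lower in the knockout, so none of them showed such an opposite direction.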

How the results depend on the processing

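Counts of the 7 genes called lower moved as follows. In beta cells, 6 became 2 with scaling to the listed total and 2 at a fold of 2. In alpha cells, 7 became 5 with centring (without Aldoa and Gapdh), 4 at a fold of 2, and 2 or 3 by edgeR with cell number or listed total as offset. In delta cells, 5 became 3 with scaling to the listed total, 2 at a fold of 2 and 1 by edgeR with listed total as offset. A fold of 1.5 in each knockout column, an alternative chosen after seeing the data, left 7 of 7 in alpha and 5 of 5 in delta cells. The log2 ratios of the 7 genes stayed below 0 in all 126 alternative values, from -3.96 to -0.26. Of these settings only the 3 scalings in alpha cells, and the listed total in beta and delta cells, could have changed the sign.

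For all listed genes of beta cells, 202 called lower became 343 with centring, 112 with the listed total and 99 at a fold of 2, and 3741 called higher became 1314, 6816 and 1626, 2192 with the total without hormones and 2171 with a pseudocount. In alpha cells, 56 called lower became 26, 35 and 22, and 20 called higher became 47, 35 and 5, and 10 with a pseudocount. In delta cells, 37 called lower became 17 with the listed total and 15 at a fold of 2, and 95 called higher became 45 with centring, 146 with the listed total, 46 at a fold of 2 and 60 with a pseudocount. In beta cells 7780 listed genes were higher and 413 lower as deposited, 6727 and 1466 with the total without hormones, and 4096 and 4096 with centring. In delta cells these were 188 and 43, 163 and 68, and 115 and 115. Centring moved the median log2 ratio by 0.54 for beta, -0.29 for alpha and 0.42 for delta cells.

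Over the fixed lists in beta cells, 19 genes called higher became 9 with centring, 42 with the listed total and 9 at a fold of 2, and 17 called lower became 11 at a fold of 2. Of the further glycolysis genes, 5 called higher became 2 with centring, 1 with a pseudocount, 2 at a fold of 2 and 2 with the filter, and in alpha cells 3 called lower became 1 at a fold of 2. Of the hypoxia genes in beta cells, 8 called lower became 5 at a fold of 2, and 0 called higher became 3 with the listed total. In delta cells 2 genes of the lists called lower became 1 with the listed total, 1 at a fold of 2, and ranged from 1 to 2 when 1 knockout column was left out; without the second column Mif was no longer called. Where the construction does not show it, the cause was not tested. No paired analysis was possible because the labels share no replicate number between genotypes and there was 1 control mouse. Low counts limit the ratio of Ldha in alpha cells (33 and 6 UMIs in the knockout columns), and its log2 ratio was -1.50 with the pseudocount and -2.89 without.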

Other observations

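Gapdh is often used to scale transcript levels. In beta cells 8069 of the other listed genes (98.5% of the table) had a higher knockout over control ratio than the 0.543 of Gapdh, where 7780 had a ratio above 1, and in alpha cells 152 (81.7%) had a higher ratio than its 0.557, where 80 had a ratio above 1. Against Gapdh in beta cells, Tpi1 would stand at 1.01, Eno1 at 1.19, Pgam1 at 1.21, Slc2a1 at 0.755 and Ldha at 0.332.

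Among the 1438 listed beta-cell genes with at least 1 UMI per control cell, no log2 ratio lay between -0.46 and -0.24, a gap of 0.22 where the next widest gap between neighbouring genes in the range from -1 to 1 was 0.03. The log2 ratio of the listed UMI totals, -0.35, lies inside this gap. In the other tables it does not: the widest gap was from -0.27 to 0.00 in delta cells, with listed totals at -0.37, and from 0.71 to 0.87 in alpha cells, with listed totals at -0.18. Pgam1 (-0.61) and Eno1 (-0.63) lie below it, Pkm (-0.11) and Gpi1 (-0.04) above it. Aldoa is not listed in beta cells, and its ratio there was not analysed here.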
